A study of Homo sapiens with 2 samples.

Results

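CDK inhibitor genes encode the proteins that hold cyclin-dependent kinases in check, and this account describes where ING5 lay at them in HepG2 cells. The members were the CIP/KIP genes CDKN1A, CDKN1B and CDKN1C, the INK4 genes CDKN2A, CDKN2B, CDKN2C and CDKN2D, the phosphatase gene CDKN3, and APOLD1, the gene next to CDKN1B. Peaks were chosen by the position of their summits: each had its summit inside one of these 9 genes, within 10 kb of one, or between CDKN1B and APOLD1, in GRCh38. This took in 21 of the 8608 peaks. The study profiled ING5 by ChIP-seq in untreated HepG2, an established human liver cancer line, with 1 library made with an ING5 antibody from Proteintech. A second library, of input DNA from untreated HepG2, was the control of the peak list. Neither was replicated, so nothing was tested and every value describes this pair of libraries. Intervals are exact 95% Poisson intervals on the number of fragments and cover counting error only, not the choice of the highest base as the summit.

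ING5 is a plant homeodomain protein that binds histone H3 methylated at lysine 4, a mark of gene starts, and works as a subunit of MYST histone acetyltransferase complexes. CIP/KIP proteins bind cyclin and kinase together and act mainly on CDK2 complexes. INK4 proteins bind CDK4 and CDK6 and keep D-type cyclins off them. Both families act before S phase, and their genes are known for induction in arrest, senescence and differentiation.

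The sequences around 6 starts are shown because the peaks end, begin or are missing there. They are RefSeq promoter windows of GRCh38.p14, each from 250 bases before a start to 50 after it, 5′ to 3′ on the strand of the gene, and capitals mark bases that lay inside an ING5 peak. The last line is the first exon of ENSG00000256658, a long noncoding RNA gene, which lay whole inside the strongest peak of the set. It was taken by its transcript identifier, ENST00000542291, from the GENCODE 44 transcripts in their GRCh37 copy, and is all in lower case.
CDKN1B, chr12:12717118-12717417, plus strand: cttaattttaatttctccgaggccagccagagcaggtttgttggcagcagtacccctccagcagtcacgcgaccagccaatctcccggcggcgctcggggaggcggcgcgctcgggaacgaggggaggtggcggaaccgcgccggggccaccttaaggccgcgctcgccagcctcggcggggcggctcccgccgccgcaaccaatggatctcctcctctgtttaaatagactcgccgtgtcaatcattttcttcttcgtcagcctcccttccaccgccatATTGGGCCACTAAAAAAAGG
LOC105369663, chr12:12725074-12725373, minus strand: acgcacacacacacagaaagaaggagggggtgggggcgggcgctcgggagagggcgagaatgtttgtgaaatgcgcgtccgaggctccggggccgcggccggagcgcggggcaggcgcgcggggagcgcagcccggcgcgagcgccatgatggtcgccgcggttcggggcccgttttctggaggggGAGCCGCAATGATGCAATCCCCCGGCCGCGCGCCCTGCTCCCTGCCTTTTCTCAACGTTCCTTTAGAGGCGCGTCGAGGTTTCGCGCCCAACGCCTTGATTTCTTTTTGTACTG
APOLD1, chr12:12725667-12725966, plus strand: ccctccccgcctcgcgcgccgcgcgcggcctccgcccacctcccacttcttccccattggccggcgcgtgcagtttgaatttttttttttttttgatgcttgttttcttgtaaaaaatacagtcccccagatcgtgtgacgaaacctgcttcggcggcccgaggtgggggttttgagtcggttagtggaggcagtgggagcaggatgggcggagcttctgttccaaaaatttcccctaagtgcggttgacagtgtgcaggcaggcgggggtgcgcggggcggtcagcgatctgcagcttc
CDKN2A, p16 start, chr9:21974808-21975107, minus strand: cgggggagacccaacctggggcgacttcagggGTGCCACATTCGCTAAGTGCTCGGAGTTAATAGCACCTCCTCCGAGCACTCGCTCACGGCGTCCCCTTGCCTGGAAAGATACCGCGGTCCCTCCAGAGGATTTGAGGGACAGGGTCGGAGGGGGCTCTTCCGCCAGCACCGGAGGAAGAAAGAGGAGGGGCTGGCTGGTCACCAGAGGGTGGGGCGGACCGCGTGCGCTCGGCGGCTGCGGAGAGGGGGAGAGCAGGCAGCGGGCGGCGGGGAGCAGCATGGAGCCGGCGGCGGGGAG
CDKN2C, middle start, chr1:50968456-50968755, plus strand: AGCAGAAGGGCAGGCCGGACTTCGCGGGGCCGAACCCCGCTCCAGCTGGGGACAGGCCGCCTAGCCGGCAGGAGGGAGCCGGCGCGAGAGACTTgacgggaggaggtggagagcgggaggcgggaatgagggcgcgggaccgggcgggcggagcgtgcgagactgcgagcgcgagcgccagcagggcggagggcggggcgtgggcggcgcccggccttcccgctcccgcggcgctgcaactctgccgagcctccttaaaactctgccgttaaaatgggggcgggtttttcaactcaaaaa
CDKN1A, chr6:36678464-36678763, plus strand: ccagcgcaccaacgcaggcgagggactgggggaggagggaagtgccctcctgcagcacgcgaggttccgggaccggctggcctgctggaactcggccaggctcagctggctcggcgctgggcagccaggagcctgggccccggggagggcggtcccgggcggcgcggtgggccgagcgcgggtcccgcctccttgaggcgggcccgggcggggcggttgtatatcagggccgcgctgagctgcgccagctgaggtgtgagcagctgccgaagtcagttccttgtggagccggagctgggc
ENSG00000256658, exon 1, minus strand: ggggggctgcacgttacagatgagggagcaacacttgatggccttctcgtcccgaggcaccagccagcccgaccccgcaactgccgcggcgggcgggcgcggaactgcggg

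The peaks clustered at CDKN1B, CDKN2C and CDKN2A and were absent at CDKN1C. They were single at CDKN1A, CDKN2D and CDKN3, with 9, 11 and 15 fragments. Of the 9 genes, 8 had a summit in their window, beside 40.0% of all 19819 protein-coding genes, and since the rule used these positions the count is a description. A promoter peak, with its summit within 1000 bp of an annotated start of the gene, was found at 6 of the 9, beside 30.9% of protein-coding genes. CDKN2C, CDKN1B, CDKN2A and APOLD1 had 4 or more summits each, as did 2.52% of protein-coding genes; all 4 summits of CDKN1B lay in the window of APOLD1 as well. CDKN2A and CDKN2B shared 2 summits. At the 10 kb limit, the farthest summit inside was 9110 bp from APOLD1, a peak of 17 fragments that also counts for CDKN1B, and the nearest outside was 11237 bp from CDKN2B, a CDKN2A peak of 8 fragments. By the deposited −log10 p, 3 of the 21 peaks ranked among the first 20 of the list and 6 among the first 100, at CDKN1B and CDKN2C. The pileup, which is the number of fragments over the summit, ran from 8 to 112 with a median of 19, beside a median of 12 over all peaks. Of the 21 peaks, 6 were longer than 1000 bp (28.6%), beside 5.79% of the list.

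**Figure D1:**
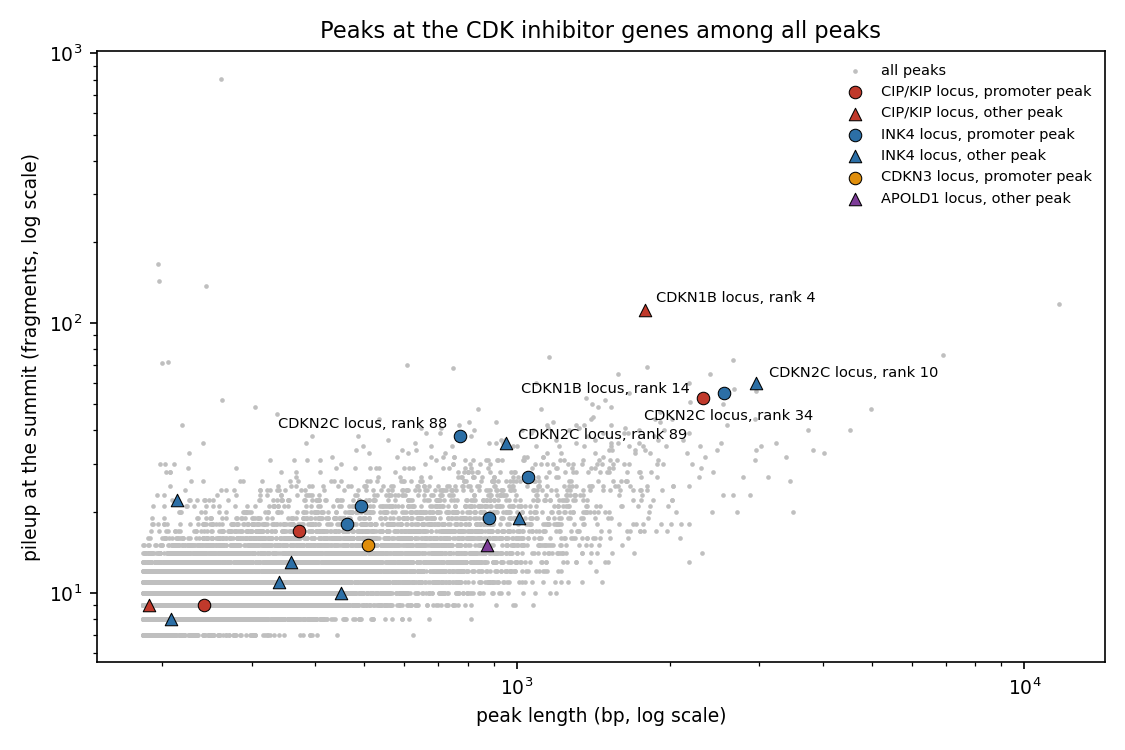
Peak length in bp against pileup in fragments, both on log scales, for all 8608 peaks (grey) and for the peaks at the CDK inhibitor genes (colours; circles are promoter peaks of a member, triangles other peaks; names mark the 6 with a rank of 100 or better). The strongest peak, with 112 fragments over 1790 bp, stands above most peaks of its length, while the peaks with 8 or 9 fragments lie at the lower edge.

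The CDKN1B locus held the strongest peak of the set, and it lay past the end of the gene rather than at its start. CDKN1B, which encodes p27, lies on the plus strand of chromosome 12, and its canonical transcript starts at 12717368. The strongest peak ran from 12723398 to 12725187 and had 112 fragments at its summit (92.2 to 135), 46.2 times a local background of 1.44 fragments once 1 was added to each. It ranked 4 of 8608 by −log10 p, 3 by fold and 7 by pileup. Its summit at 12723868 was 1499 bp past the end of CDKN1B and 2049 bp before the nearest start of APOLD1, in an interval of 3548 bp between both genes.

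The 2 annotations at hand placed different noncoding genes under this strongest peak. In GENCODE the summit was 143 bp downstream of the start of ENSG00000256658, a long noncoding RNA gene on the minus strand, and 33 bp past its first exon, in its intron. In RefSeq the summit was inside LOC105369663, also a long noncoding RNA gene on the minus strand, 1255 bp downstream of its start at 12725123. The right end of the peak reached into the promoter window of LOC105369663, where 114 of the 300 bases shown above are capitals. It stopped 730 bp before the nearest start of APOLD1, and none of the bases of that APOLD1 window lay in a peak.

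At the start of CDKN1B itself, a tall peak and a lower one stood on either side of an uncovered start. The tall one ran from 30 to 2351 bp downstream of the canonical start, with 53 fragments (39.7 to 69.3), a fold enrichment of 25.9 and a length of 2322 bp, and ranked 14 by −log10 p. Its summit lay 808 bp downstream of the canonical start, in exon 1 within the coding sequence, and 315 bp from the nearest annotated start. The lower one had 17 fragments (9.90 to 27.2), was 9.71-fold enriched and ranked 1016 by −log10 p, with its summit 561 bp upstream. Between both peaks 316 bp held no peak, and the canonical start lay in that gap, so only the last 20 bases of the CDKN1B window above are capitals. ChIP fragments carry no strand, and GPR19, a receptor gene on the minus strand, has its outermost start at 12717246 in RefSeq. That start is 122 bp from the CDKN1B start, and the upstream summit lay 439 bp downstream of it. By the RefSeq starts, the upstream peak therefore cannot be given to 1 of both genes. In GENCODE the canonical start of GPR19 was at 12696183, and GPR19 had no summit within 1000 bp of a start.

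The other peaks of this interval were weaker. A peak of 188 bp in the intron of CDKN1B had 9 fragments (4.12 to 17.1) and ranked 8146. A peak at the distal part of APOLD1, a gene of endothelial cells, had 15 fragments (8.40 to 24.7) and was 7.79-fold enriched, with its summit 1517 bp downstream of the canonical start and inside coding sequence of exon 2. APOLD1 therefore had no summit within 1000 bp of any of its starts. The pileup of the strongest peak was 2.11 times that of the tall CDKN1B peak, and their counting intervals did not overlap. That tall peak was 3.12 times the upstream one, again without overlap.

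**Figure D2:**
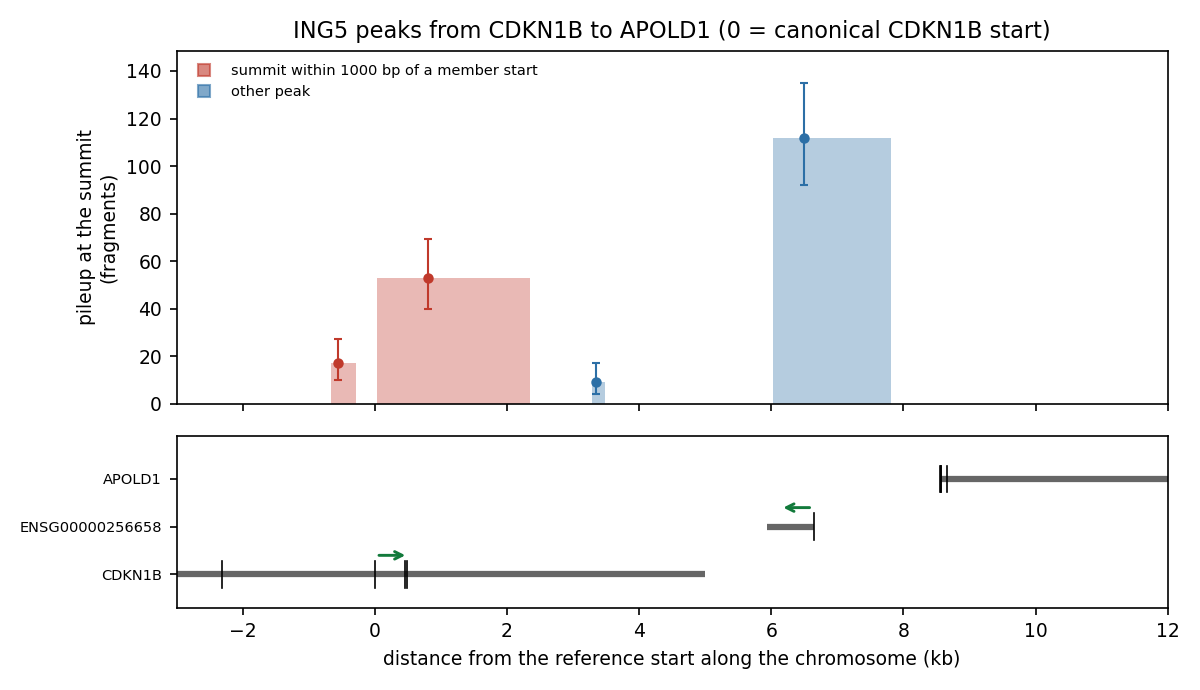
Top, each peak between CDKN1B and the start of APOLD1 as a box from its left to its right end, with height and point at its pileup in fragments and a bar for the 95% Poisson interval (red, summit within 1000 bp of a start of a member; blue, other). Bottom, gene spans with ticks at annotated starts and green arrows for the direction at the canonical start. The box of 112 fragments stands between CDKN1B and APOLD1 over ENSG00000256658; the peak of 15 fragments in APOLD1 lies beyond the right edge.

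The other CIP/KIP genes had little or nothing. CDKN1A encodes p21, a target of p53, and had 1 peak of 242 bp with 9 fragments (4.12 to 17.1), 5.40-fold enriched and ranked 6294. Its summit lay 778 bp downstream of the canonical start, in the intron that follows, and 721 bp from the nearest start. The noncoding gene DINOL starts on the opposite strand, and the same summit was 933 bp upstream of it. No base of the CDKN1A window shown above lay in a peak, and PANDAR, another noncoding gene near it, had no summit within 1000 bp. CDKN1C, an imprinted gene that encodes p57, had no summit in its window on chromosome 11, and the nearest lay 222833 bp away. Signal below the cutoff of the peak list was not examined there.

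CDKN2A and CDKN2B, neighbours on the minus strand of chromosome 9, carried 5 peaks, and each of their 3 main start regions had one. CDKN2A is read from separate starts for p16 and for ARF, which acts on the p53 pathway. At the p16 start the peak had 21 fragments (13.0 to 32.1) and was 11.9-fold enriched, with its summit 137 bp downstream of the canonical start, in coding sequence of exon 1. It lay across the start, so 268 of the 300 bases of the p16 window are capitals. At the ARF start region, 19476 bp away from summit to summit, the peak had 27 fragments (17.8 to 39.3), was 13.7-fold enriched and 1049 bp long, and ranked 235. This summit was 196 bp downstream of a CDKN2A start and, on the other strand, 57 bp downstream of a start of CDKN2B-AS1, the noncoding gene also known as ANRIL. The counting intervals at both CDKN2A start regions overlapped, so their pileups were not told apart.

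A gap without a peak lay at some, not all, GENCODE starts of the ARF region. The CDKN2A start nearest to the summit of the peak of 27 fragments lay inside that peak. A peak with 19 fragments (11.4 to 29.7) and 9.47-fold enrichment had its summit 594 bp upstream of the outermost CDKN2A start in GENCODE. That summit was 413 bp downstream of the start of the noncoding gene ENSG00000266446. The 915 bp between this peak and the peak of 27 fragments held 4 GENCODE starts of CDKN2A and 10 of CDKN2B-AS1. In RefSeq the outermost CDKN2A start, at 21995324, was the left end of the peak of 19 fragments. Of the 300 bases of its promoter window, 251 lay in a peak. The weakest of the 21 peaks, with 8 fragments (3.45 to 15.8) and a rank of 8534, lay inside CDKN2A 2726 bp downstream of a start. CDKN2B, which encodes p15, a target of TGF-beta signalling, had 1 promoter peak. That peak had 18 fragments (10.7 to 28.4), 10.03-fold enrichment and its summit 304 bp downstream of the canonical start, in the 5′ UTR.

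**Figure D3:**
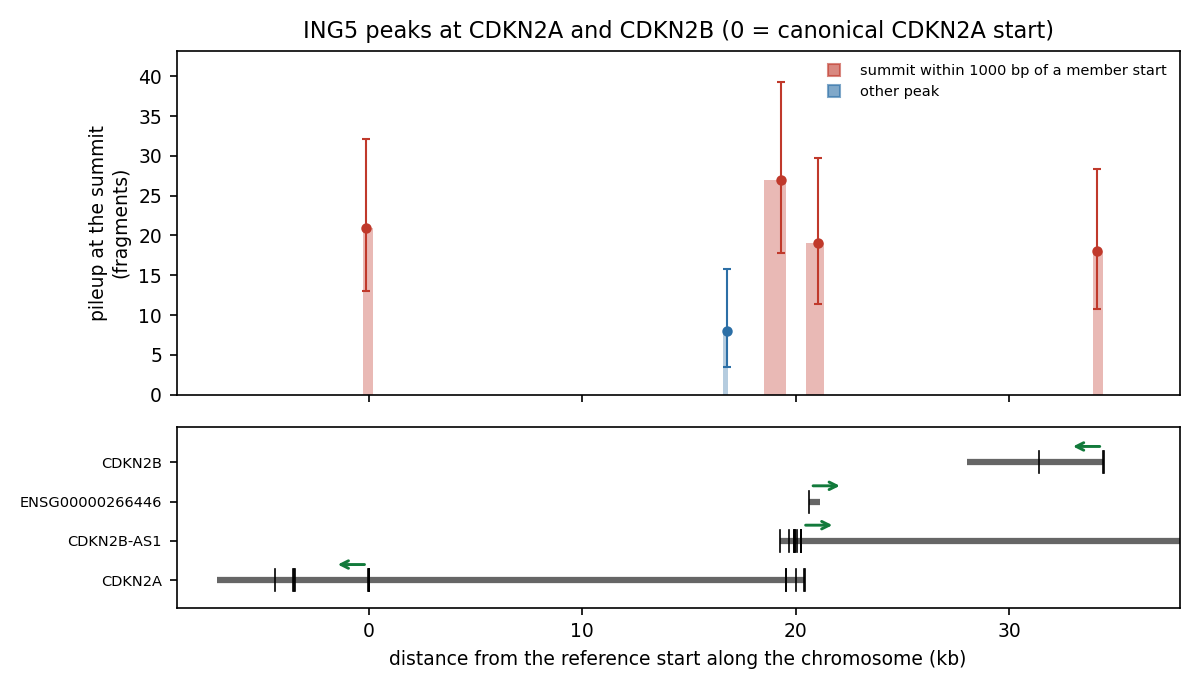
Peaks at CDKN2A and CDKN2B, drawn as boxes from left to right end with the pileup in fragments and its 95% Poisson interval, above the gene spans, annotated starts (ticks) and directions (arrows). The 4 red peaks, with 18 to 27 fragments, stand at the p16, ARF and CDKN2B start regions and have overlapping intervals; the blue peak has 8 fragments.

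CDKN2C, which encodes p18, had the most peaks of the set, 8 in a run of 22557 bp on chromosome 1, of which 41.1% lay inside peaks. As many summits in a window were found at 0.207% of protein-coding genes. Inside the gene, peaks covered 36.7% of its 13890 bp, and 140 of 19819 protein-coding genes were covered as much. The strongest of the run was again past the end of the gene. It ran from 50976179 to 50979138, beginning 1545 bp past the last base of CDKN2C, with 60 fragments (45.8 to 77.2), 26.1-fold enrichment and a rank of 10. At 2960 bp it was also the longest of the 21. No annotated gene start lay within 1000 bp of its summit, and the nearest coding start was that of CDKN2C itself, 8078 bp away.

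The middle start of CDKN2C, at 50968706, had a peak on each side. The downstream one had 55 fragments (41.4 to 71.6), was 15.98-fold enriched and 2562 bp long, with its summit at 375 bp. It ran on across the canonical start, which lies further downstream and 1164 bp from that summit. The upstream one had 38 fragments (26.9 to 52.2) and 15.6-fold enrichment, with its summit 533 bp upstream and 379 bp downstream of the start of the noncoding gene ENSG00000290102 on the other strand. Between them 296 bp without a peak held the middle start, and 94 of the 300 bases of that window are capitals, all on its upstream side. CDKN1B and CDKN2C were the members with such an uncovered start between a summit upstream and a summit downstream, each within 1000 bp. Such starts were found at 4.27% of protein-coding genes.

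The remaining CDKN2C peaks differed in height. A peak over the last exon, with its summit in coding sequence of exon 2 of the canonical transcript, had 36 fragments (25.2 to 49.8) and was 16.4-fold enriched. In the intron before it, 2 low peaks had 10 and 13 fragments. Beyond the strongest peak, another had 22 fragments (13.8 to 33.3) over the highest local background of the set, 3.13 fragments, and so was 5.57-fold enriched. That peak, 7331 bp past the gene, was also the farthest inside the 10 kb limit at CDKN2C, and the next summit outside was 262103 bp away. At the outermost CDKN2C start, the only peak had 19 fragments (11.4 to 29.7), and its summit was 19 bp downstream of a start of FAF1, a gene on the opposite strand, and 1026 bp from CDKN2C.

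**Figure D4:**
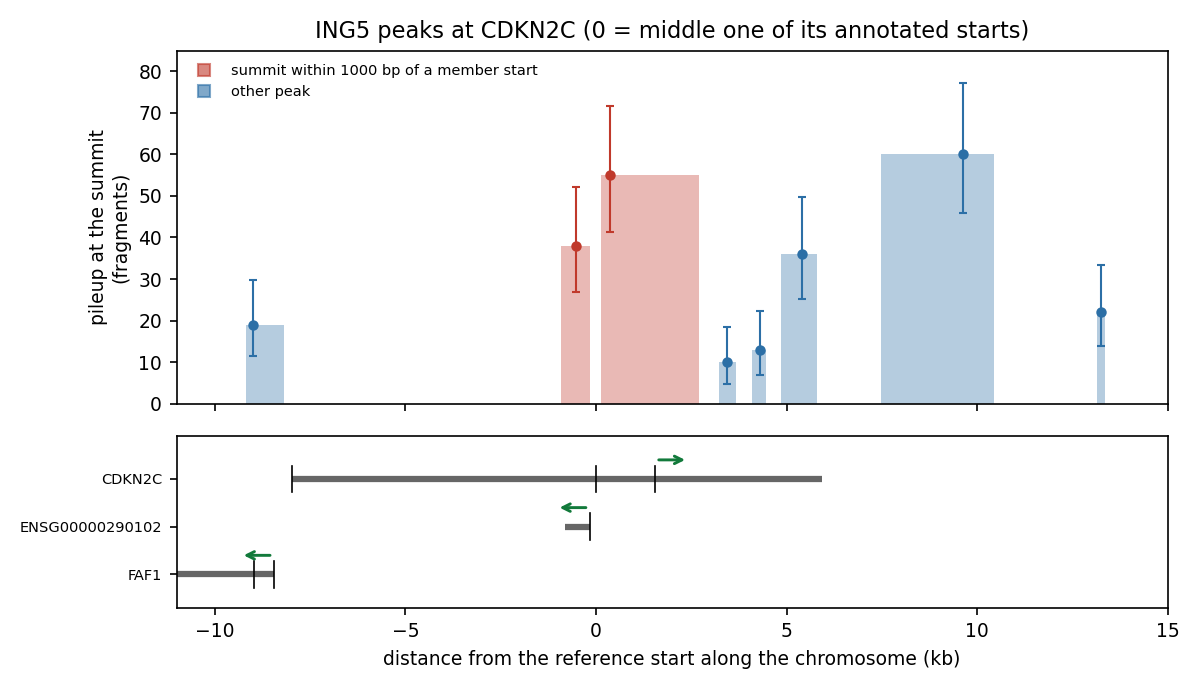
Peaks at CDKN2C as boxes with the pileup in fragments and its 95% Poisson interval, above gene spans, annotated starts (ticks) and directions (arrows); the distance is from the middle one of its 3 annotated starts. The peaks of 38 and 55 fragments stand on either side of that start, and the peak of 60 fragments lies past the end of the gene.

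CDKN2D and CDKN3 had 1 peak each. CDKN2D encodes p19 of the INK4 family, and the 1 peak in its window had 11 fragments (5.49 to 19.7) and was 6.47-fold enriched. Its summit lay 663 bp past the end of CDKN2D and 174 bp downstream of a start of KRI1, the next gene on the minus strand, so CDKN2D had no promoter peak. CDKN3, whose product removes the activating phosphate of CDK2, had a peak with 15 fragments (8.40 to 24.7) and 8.63-fold enrichment, 441 bp downstream of its canonical start in an intron.

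CIP/KIP and INK4 genes were set side by side as a description. A promoter peak was found at 2 of 3 CIP/KIP genes and at 3 of 4 INK4 genes, beside 30.9% of all protein-coding genes. The 3 CIP/KIP promoter peaks had 9, 17 and 53 fragments, and the 6 INK4 promoter peaks had 18 to 55 with a median of 24. Both ranges overlap, and the tall peaks of CDKN1B and CDKN2C, with 53 and 55 fragments, had overlapping counting intervals but fold enrichments of 25.9 and 15.98. The local background was 1.09 fragments at the first and 2.50 at the second, which enters the fold directly. The INK4 count held in full among peaks with a −log10 p of 10 or more, while the CIP/KIP count was then 1 of 3, since the CDKN1A peak fell below it. At that limit 18.6% of all protein-coding genes had a promoter peak. With canonical transcripts alone the CIP/KIP count stayed 2 of 3 and the INK4 count was 2 of 4, beside 27.9% of all protein-coding genes.

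Promoter summits lay on both sides of the starts. Of the 10 promoter peaks of members, 7 had their summit downstream (70.0%), beside 74.7% of all 6527 promoter peaks, and the median offset was 233.5 bp beside 171 bp. The 3 upstream summits, at CDKN1B, CDKN2C and CDKN2A, lay 533 to 594 bp from the start. At each of these genes the upstream peak had fewer fragments than the strongest downstream one. The counting intervals were apart at CDKN1B and overlapped at CDKN2A and CDKN2C.

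**Figure D5:**
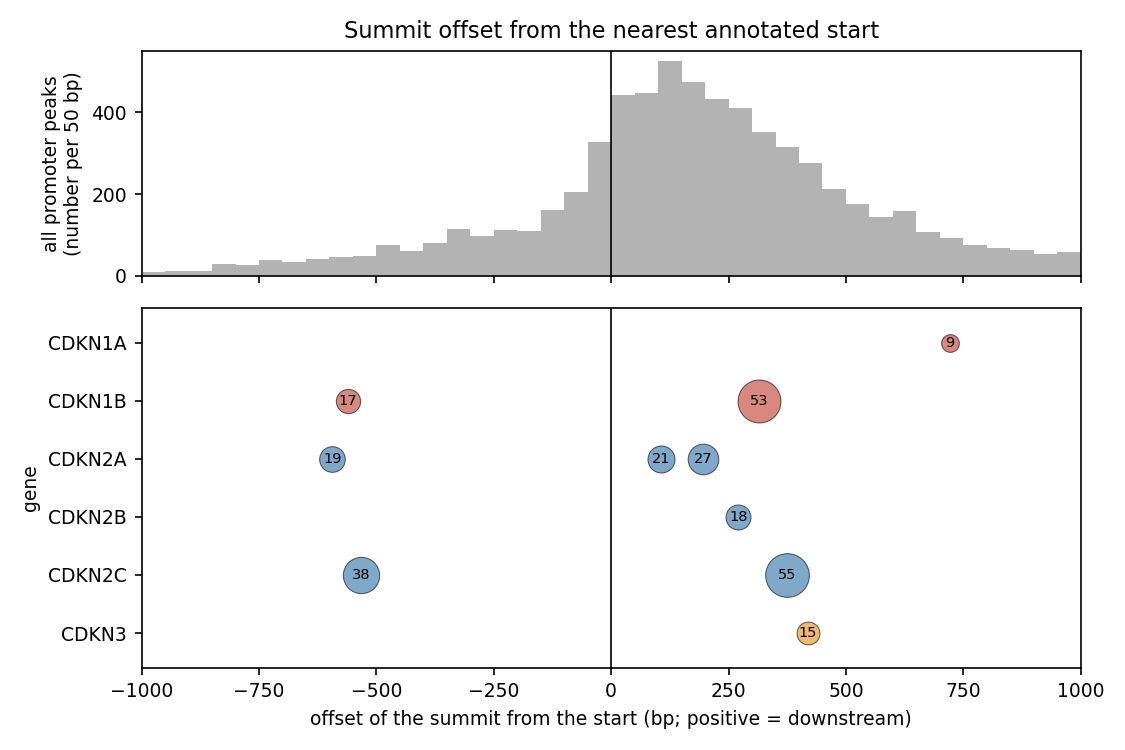
Top, number of all 6527 promoter peaks per 50 bp of offset between summit and nearest annotated start of a protein-coding gene; bottom, the 10 promoter peaks of the members by gene, with circle area in proportion to the pileup printed in the circle, in fragments. The 3 upstream summits stand between −594 and −533 bp, and the downstream ones between 107 and 721 bp.

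Local background was raised at many of these peaks. It was at the lowest value of the list, 0.853 fragments, at 5 of the 21 peaks (23.8%), beside 60.5% of all peaks. It rose to 3.13 fragments at CDKN2C and 1.44 at CDKN1B. Local background enters each fold directly, and why it differed between peaks was not tested.

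The promoter windows differed in base content. RefSeq gave 12 windows for 8 of the 9 members. CDKN1C was not among them. The ratio of observed to expected CpG was 1.15 at LOC105369663, a value reached by 1.23% of 35116 promoter windows, 1.13 at the outermost start of CDKN2A, 1.01 at the middle start of CDKN2C and 1.00 at CDKN1B, beside a median of 0.579. It was 0.288 at the canonical start of APOLD1. The ratio and the peaks did not go together throughout. The canonical start of CDKN2C, at 0.603, lay whole inside a peak, while the window of CDKN2D, at 1.05, held none.

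Motifs were searched by letters on both strands. CCAAT, the NF-Y core, occurred 3 times in the CDKN1B window, at −174, −50 and, on the other strand, 30 bases from the start, and it was present in 34.6% of all windows. It also occurred 2 times at CDKN3 and 1 time each at the canonical start of CDKN2C, at both APOLD1 starts and at CDKN2D. GGGCGG, the GC box, occurred 6 times at the middle start of CDKN2C, 4 times at CDKN1A, 3 times at CDKN2D and at the outer start of APOLD1, 2 times at the p16 start and at CDKN2B, and 1 time at CDKN1B and at the canonical start of CDKN2C. It was present in 45.0% of all windows. Of the GC boxes at the middle start of CDKN2C, the outermost pair, at −109 and −105, overlap. At CDKN1A those at −45 and −40 overlap too. The E2F letters TTTCGCGC or TTTGGCGC were found in none of the member windows but at 15 bases past the start of LOC105369663, inside the strongest peak, and in 1.15% of all windows. The forkhead letters TGTTTAC, in 3.42% of windows, were in none of the member windows but once in that of LOC124902130, a RefSeq long noncoding RNA gene whose window lay whole inside the peak at the ARF start region, at −48 on the other strand. CACGTG, the E box, was present at the outermost and the canonical start of CDKN2C and in 7.26% of windows. These are letter matches and say nothing of binding.

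The promoter peaks of listed genes of the same pathway all had fewer fragments than the tall ones of CDKN1B and CDKN2C. Of 26 genes of the G1 to S transition, 12 had a promoter peak (46.2%), beside 30.9% of all protein-coding genes, with a median pileup of 12 fragments at the strongest peak of each, beside 13 over all protein-coding genes with one. By −log10 p CDC25A, a phosphatase that activates CDK2, came ahead of the others with 22 fragments and 12.4-fold enrichment, followed by E2F2 with 22 fragments and 7.99-fold, and TFDP2, a partner of E2F proteins, with 20 fragments and 7.86-fold. CDK4, the kinase that INK4 proteins bind, had 8 fragments, CDK2 had 12, and CDK6, RB1, CCND1 and CCNE1 had no promoter peak; these 6 genes were named after their values were seen. Of 23 genes that regulate p27 or its gene, 14 had a promoter peak (60.9%), beside the same 30.9% of all protein-coding genes, with a median of 13 fragments. MYC, which represses CDKN1B, had the highest −log10 p of them, with a rank of 82, 33 fragments and 18.3-fold enrichment, and SKP2, which marks p27 for degradation, had 35 fragments and 10.4-fold enrichment over a local background of 2.46. Over the 6 members with a promoter peak the median was 22.5 fragments, and since the members were chosen on these values this is a description.

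The promoter peaks most like the tall one of CDKN1B were those of SMC4, BAHCC1, ITGB8, HNRNPU and SLC38A1. Likeness was the distance over log2 length, pileup and fold enrichment in this 1 library, from 0.355 at SMC4 to 0.591 at SLC38A1. These peaks had 40 to 55 fragments, folds of 20.3 to 24.3 and lengths of 1659 to 2946 bp. The strongest peak of the CDKN1B locus was no promoter peak of a coding gene and was not compared.

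Depth and markers bear on the low peaks. The peak list drew on 12416160 ING5 and 9915170 input fragments, of which 12416135 and 9915132 were left after filtering. The lowest pileup of the list was 7. Its header names the ING5 library in a way found in none of the labels. None of 12 hepatocyte markers, ALB and HNF4A among them, had a promoter peak, nor had 9 markers of blood, fibroblasts and endothelium. Over all protein-coding genes the share was 30.9%, and the cell type was not checked by these peaks.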

How the data were processed

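ING5 ChIP and input DNA from untreated HepG2 cells were sequenced, 1 library each. The labels' processing notes name fastp 0.19.6, Bowtie2 and deepTools. MACS2 2.1.1.20160309 set ING5 against input on paired fragments, per the file headers, with a p-value cutoff of 1e-05, at most 1 fragment kept per position and local background over 1000 and 10000 bp. The names of the alignments in the headers point to removal of duplicate and multi-mapped reads before calling. The deposited pileup is a signal, in fragments at the summit, and holds whole numbers, not divided by depth. The deposited fold enrichment is a ratio of pileup to local background with 1 added to each. The deposited −log10 p and −log10 q are the caller's, and ranks used −log10 p, since a header line states that no q was computed although values are listed. All of these belong to single peaks and are the authors' own.

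The labels name GRCh37, but 76.0% of 8589 summits lay within 1000 bp of a coding start at GRCh38 positions and 13.7% at GRCh37 positions, so the list was read as GRCh38. Starts and spans came from the original positions recorded in GENCODE 44, and no coordinate was converted. Local background was recovered from pileup and fold. The assignment of peaks was tested on simulated data. Computation used Python 3.11.15, pandas 2.3.3 and scipy 1.17.1. Members and lists were chosen with earlier results of these data known. Named genes were the members, their neighbours with a summit within 1000 bp of a start, the 5 likest peaks and 3 genes per list, of which 1 is not reported here. GPR19, PANDAR, LOC105369663, the markers ALB and HNF4A, and 6 genes of the G1 to S list were named outside this rule, after their values were seen. Gene counts of peaks used a promoter window of 1000 bp. Outside the RefSeq promoter windows and the exon shown, no peak sequence was read, since the genome at hand was GRCh37.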

Additional observations from a re-analysis of the deposited data

How the results depend on the processing

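The number of peaks at the CDK inhibitor genes ran from 15 to 21 over all alternatives: 15 with a −log10 p of 10 or more, 16 in gene bodies alone, 20 with a flank of 5 kb, and 21 with 50 kb, with any overlapping base and with RefSeq spans, the last chosen after seeing the data. CIP/KIP genes with a promoter peak were 2 of 3, but 1 with a −log10 p of 10 or more (CDKN1B) and 0 with a window of 200 bp. With that window INK4 genes were 1 of 4 in place of 3 (CDKN2A), G1 to S genes 4 of 26 in place of 12, and p27 regulators 8 of 23 in place of 14, and 13.5% of all protein-coding genes had a peak. By construction a narrower window can only lower each count. With canonical transcripts alone the strongest promoter peak of CDKN2A was the p16 one with 21 fragments in place of 27. CDKN2C then had no summit within the window, so no value was given and INK4 genes were 2 of 4. Its canonical start nevertheless lay inside the peak of 55 fragments. The strongest peak of the CDKN1B interval and those of the other genes were the same by −log10 p and by fold enrichment. No paired analysis was possible because each group has 1 library and no test was run. At this depth peaks of fewer than 7 fragments were not in the list, so genes without a peak may still be bound.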
